A study of Rattus norvegicus with 9 samples.

Results

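Uteri of rats given gonadotropins to induce ovulation were compared with uteri of untreated rats, using every array that the labels assign to the model group (21, 22 and 23) or to the control group (41, 42 and 43). These 6 of the 9 arrays in the series make up the comparison, and the other 3, from the treatment group (31, 32 and 33), entered the fit only to estimate the spread between arrays. Each array measured total RNA of uterine tissue from female Rattus norvegicus on an Affymetrix expression array. Control rats had no treatment. Model rats were given 0.5 U of PMSG, a gonadotropin from the serum of pregnant mares, by intraperitoneal injection, and an equal amount of human chorionic gonadotropin (hCG) 48 h later. Treatment rats received that induction with electroacupuncture at Guanyuan and Sanyinjiao, named acupuncture points, for 15 min a session, over the 7 days before it and during it. The labels give neither the rats' strain and age nor the time between hCG and tissue collection, and no stage of the oestrous cycle for the controls. With 18 rats described, 6 to a group, they leave unsaid whether each array is a separate animal, so every p-value below measures the spread between these arrays.

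PMSG acts mainly like follicle-stimulating hormone and makes ovarian follicles grow and secrete oestrogen, and hCG acts like the luteinizing hormone surge and releases the oocytes. The uterus itself then meets oestrogen followed by progesterone from the newly formed corpora lutea. Oestrogen drives the uterine epithelium to grow and secrete, and progesterone shifts the tissue towards a state that can receive an embryo, in which stromal cells can become decidual cells. Intact uterus holds luminal and glandular epithelium, stroma, vessels, immune cells and a thick coat of smooth muscle. In such bulk tissue fewer cells of a type and less RNA per cell cannot be told apart.

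The arrays read as uterus. Median intensities of the 9 arrays were 23.56 to 24.02. In the 6 arrays compared, Myh11, the smooth muscle myosin heavy chain, measured 3195.7 to 5225.1 and Hoxa10, which patterns the uterus, 155.4 to 472.5 on the linear scale, whereas the probe set of Esr1, the oestrogen receptor alpha gene, read only 5.2 to 6.1 and was not tested. Markers of ovary summed to 132.2 to 149.9 over 13 genes and those of oviduct to 52.4 to 60.4 over 5 genes, with each ovarian steroid enzyme marker at 15.6 or less.

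Control 43 did not resemble the other untreated rats. All values below are log2(intensity + 16) unless the linear scale is named. Across the 10973 genes tested, which are not independent replicates, controls 41 and 42 correlated at r = 0.9799, and control 43 with them at 0.8867 and 0.9161. Control 43 correlated with models 21, 22 and 23 at 0.9723, 0.9591 and 0.9422. Among the model arrays, 21 and 22 correlated at 0.9651, 21 and 23 at 0.9565, and 22 and 23 at 0.9709. The standard deviation pooled over genes was 0.357 among controls and 0.251 among model arrays. The Actb 3' to 5' probe ratio of control 43, a sign of RNA quality, was 7.84, the highest of 9 arrays, while its Gapdh ratio was 1.3 and those of all arrays 1.1 to 1.39. Its part in the results was not tested. Counts over all genes and most genes whose call depends on this array are therefore given with and without it. A value with no such remark includes it. Control 43 was set apart after its values were seen, so fits without it rest on controls 41 and 42, which resemble each other. An adjusted p from such a fit describes these arrays and is no call at the stated error rate.

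Of 10973 genes, 3 passed an adjusted p under 0.05 in limma, 0.0273% of those tested: Igfbp1 rose in the model uterus (1 gene higher, 0.00911%), and Sftpd and Rnpep fell (2 lower, 0.0182%). With limma on the model and control arrays alone, Igfbp1, Sftpd and Rnpep had adjusted p = 0.0613, 0.207 and 0.207. In the main fit at an unadjusted p under 0.05 there were 699 higher genes (6.37%) and 667 lower (6.08%). Each list count below is to be read beside these shares. Without control 43 the shares of all genes that passed were 5.7% higher and 6.92% lower. Model and control arrays did not overlap for 14.5% of genes, and 53.5% had a positive difference. That 14.5% stands beside every remark of no overlap below. Over all genes the median log2 difference was 0.016.

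Igfbp1 encodes insulin-like growth factor binding protein 1, a secreted carrier that keeps growth factor from its receptor and is a classical product of decidual cells. It measured 9.03, 9.83 and 9.35 in models 21, 22 and 23, and 4.75, 5.06 and 5.83 in controls 41, 42 and 43. All model arrays lay more than 3 log2 units above every control, control 43 included. The log2 fold change was 4.19 (SE 0.38, 95% confidence interval 3.31 to 5.07, adjusted p = 0.0355 in limma), and 4.50 without control 43 (adjusted p = 0.00117). Only 2 of the 3 controls reached the 40th percentile of their array, so the size of the change depends on the constant added before log2: it was 4.99 with 1 added and 3.08 with 64. Of the 9 fits that each left out 1 array, Igfbp1 passed in 3. The 250 bases before the transcription start of the rat gene are shown because insulin-response elements of this promoter are well known as sites for FOXO factors. Capitals mark the letters CAAAACA and CAAAATA, searched on both strands in RefSeq windows of 300 bases (build GRCr8, chr14:86261027-86261276, plus strand).
Igfbp1: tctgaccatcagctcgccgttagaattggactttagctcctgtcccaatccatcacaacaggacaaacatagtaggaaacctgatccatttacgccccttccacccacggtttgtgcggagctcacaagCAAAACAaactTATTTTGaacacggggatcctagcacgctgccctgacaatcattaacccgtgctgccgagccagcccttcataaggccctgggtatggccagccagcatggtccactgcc
CAAAACA began 121 bases before the start, and CAAAATA, read on the minus strand, lay 110 bases before it. These letters occur in 6.28% and 4.96% of 33469 promoter windows and either form in 10.8%, so a match to 1 form alone is common. The share of windows that hold both forms, as this promoter does, was not counted. Foxo1, the FOXO factor of decidual stroma, measured 7.89, 7.57 and 7.79 in model and 7.10, 6.65 and 7.25 in control arrays, a difference of 0.75 (adjusted p = 0.199, and 0.0204 without control 43).

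Other binding proteins were high on the same side. Igfbp6, which prefers IGF-II, measured 11.16, 11.03 and 11.09 in model arrays and 9.48, 10.55 and 9.66 in controls, a difference of 1.20 (adjusted p = 0.174), and its other probe set differed by 1.62. Igfbp7, found in vessel walls and stroma, stood at 11.61, 12.20 and 12.95 against 10.53, 10.76 and 11.32 (1.38, adjusted p = 0.208). Igfbp3, the main carrier in blood, stood at 9.17, 10.10 and 9.07 against 6.78, 7.41 and 8.59 (1.85, adjusted p = 0.254). For none of these 3 genes did a control reach the lowest model array, and control 43 was the nearest control for Igfbp7 and Igfbp3 but not for Igfbp6. Without control 43 all 3 passed, with adjusted p = 0.0443, 0.0227 and 0.0134. Among ligands, Igf1 differed by 0.43 (adjusted p = 0.704), with control 43 the highest array of the 6 at 10.24, and without that array by 1.07, which passed (adjusted p = 0.0342). Igf2 differed by 0.39, and the receptor genes Igf1r, Igf2r and Insr by 0.25, 0.23 and 0.05; these 4 did not pass in either fit. Igfbp2 had a difference of -0.66 and Igfbp4 of -0.24. Of 16 members of this system tested, 1 passed higher, and the median difference was 0.32. At an unadjusted p under 0.05, 5 were higher (6.37% over all genes) and 0 lower (6.08%). Without control 43, 6 passed higher (5.7% over all genes).

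Sftpd encodes surfactant protein D, a collectin that binds microbial sugars on mucosal surfaces. Its levels were 6.15, 6.39 and 5.79 in model and 7.95, 7.71 and 7.57 in control arrays. Control 43 was the lowest control and still more than 1 log2 unit above the highest model array. It fell by 1.64 (SE 0.17, adjusted p = 0.0437 in limma). Rnpep encodes aminopeptidase B, which trims basic residues from the ends of peptides. Rnpep read 7.35, 7.82 and 7.27 in model arrays against 8.86, 8.77 and 8.99 in controls. Here control 43 was the highest control. Rnpep fell by 1.39 (SE 0.15, adjusted p = 0.0456). Of 9 fits that each left out 1 array, Rnpep passed in 2 and Sftpd in 1. Without control 43 the differences were -1.33 for Rnpep (adjusted p = 0.00576) and -1.72 for Sftpd (adjusted p = 0.00326). Of 20 aminopeptidases and ectopeptidases tested, Rnpep was the 1 that passed (0.0273% over all genes). Prcp, the prolylcarboxypeptidase that cleaves angiotensin peptides, differed by -1.02 (adjusted p = 0.252, and 0.00305 without control 43). Lta4h, a relative of Rnpep, differed by -0.17.

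**Figure D1:**
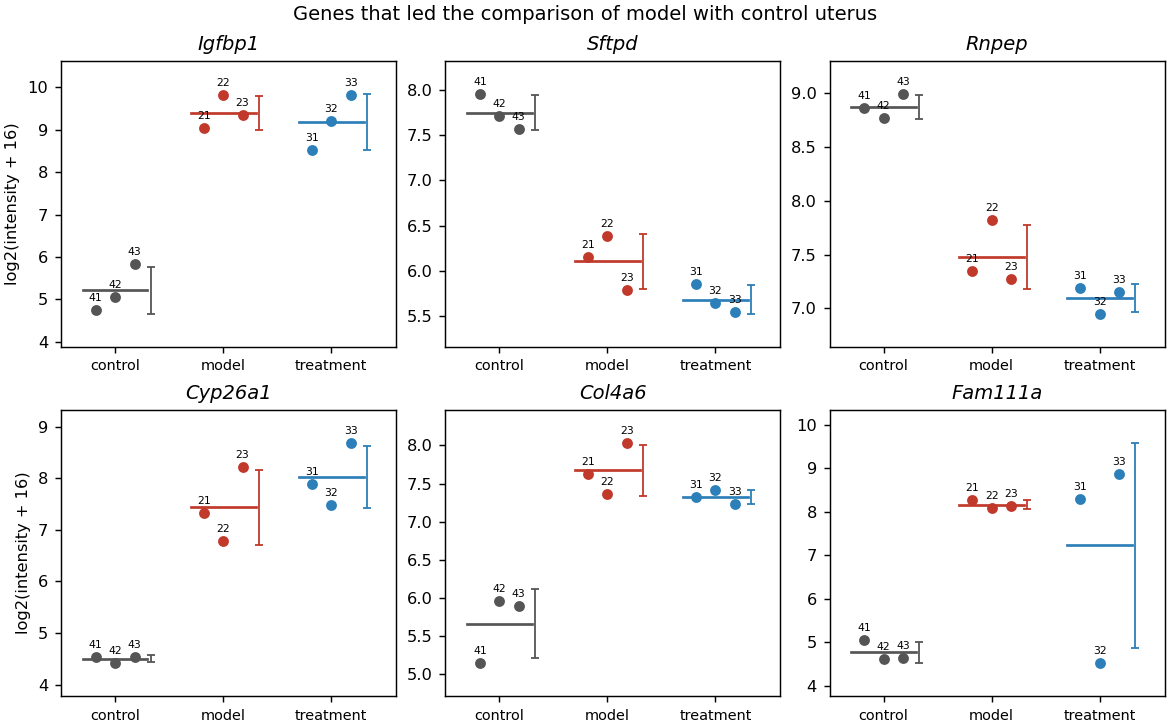
Log2(intensity + 16) of 6 genes, 1 point per array with its number, by group; horizontal lines are group means and the bars beside them 1 SD (n = 3). Igfbp1, Cyp26a1, Col4a6 and Fam111a are higher in the 3 model arrays than in any control, Sftpd and Rnpep lower, and treatment 32 at 4.53 sits with the controls for Fam111a.

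Cyp26a1 encodes the cytochrome P450 that hydroxylates retinoic acid and so clears it, and in rodent uterus it is induced by progesterone. Its levels were 7.32, 6.78 and 8.22 in model arrays and 4.54, 4.42 and 4.54 in controls, none of which reached the 40th percentile of its array. The difference of 2.94 (SE 0.38) missed the threshold at adjusted p = 0.0663, and passed at 0.00974 without control 43 and at 0.0300 with 1 added before log2. The promoter is shown because the gene is a textbook target of retinoic acid receptors, which bind paired hexamers spaced by 5 bases. Capitals mark 2 copies of AGTTCA in the same direction with 5 bases between them, read on the minus strand, in the 250 bases before the start (RefSeq GRCr8, chr1:244883572-244883821, plus strand).
Cyp26a1: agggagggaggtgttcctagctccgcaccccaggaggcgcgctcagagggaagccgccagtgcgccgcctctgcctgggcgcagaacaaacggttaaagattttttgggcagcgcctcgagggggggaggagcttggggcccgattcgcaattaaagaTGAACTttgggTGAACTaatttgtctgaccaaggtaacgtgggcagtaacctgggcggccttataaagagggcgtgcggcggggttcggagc
The match has its first base 92 bases before the start. Searched on both strands in all windows, this pair was present in 0.00896% (3 promoters) and any of 4 pairs with AGTTCA or AGGTCA in either place in 0.0299% (10 promoters). A match is no measure of binding.

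Other retinoid genes went in different directions. Rarres1, named for its response to retinoic acid receptors, measured 7.62, 8.79 and 6.73 in model arrays and 9.92, 9.83 and 9.60 in controls (-2.07, adjusted p = 0.186, and 0.0367 without control 43). Crabp1, a cytosolic carrier of retinoic acid, measured 9.54, 7.45 and 8.96 against 6.36, 7.14 and 7.56 (1.63, adjusted p = 0.316), with control 43 above model 22. Of 21 retinoid genes tested, 3 were higher (6.37% over all genes) and 2 lower (6.08%) at an unadjusted p under 0.05. None of the 21 passed, and the median was -0.04. Of the 3 higher genes, Cyp26a1 and Rbp4 reached the 40th percentile in 0 controls. Without control 43, 2 passed higher (5.7% over all genes) and 4 lower (6.92%). Among progesterone-induced genes, 16 of 17 had a positive difference (53.5% of all genes), 3 were higher at an unadjusted p under 0.05 (6.37%) and 0 passed. The 3 higher ones were Cyp26a1, the endocytic receptor Lrp2 and Tsc22d3, the leucine zipper protein GILZ. Tsc22d3 measured 9.39, 9.15 and 9.08 against 8.11, 8.41 and 8.73 (0.79, adjusted p = 0.208). Without control 43 these 3 and 1 more passed. As a mean over the list of deviations from each gene's mean, models 21, 22 and 23 stood at 0.25, 0.08 and 0.28. Controls 41, 42 and 43 stood at -0.67, -0.54 and 0.28. Of 17 glucocorticoid response genes, several of them also in the progesterone list, 15 had a positive difference. Ihh, the hedgehog ligand of progesterone-exposed epithelium, differed by 0.13 and Pgr, the progesterone receptor, by -0.12.

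Besides these, the largest positive differences among separated genes included several secreted proteins. These were chosen for size and for groups that do not overlap, so the separation is part of the choice. Fam111a, a protease that acts where DNA replicates, measured 8.27, 8.08 and 8.12 in model arrays and 5.05, 4.61 and 4.64 in controls. Only 1 of the 3 controls reached the 40th percentile of its array, and the difference was 2.14 with 64 added before log2 and 4.50 with 1. Its difference of 3.39 had an SE of 0.95 and an adjusted p of 0.266, because the treatment arrays, at 8.28, 4.53 and 8.86, widen the pooled spread. Fitted on the 6 arrays alone, Fam111a was the 1 gene that passed (adjusted p = 0.0029), again 0.00911% of those tested. Spp1, osteopontin, an integrin ligand of the receptive uterus, measured 8.98, 8.97 and 11.93 against 6.51, 6.77 and 8.30 (2.77, adjusted p = 0.329), with model 23 far above the other two. Tgfb2, a TGF-beta ligand, measured 7.64, 7.61 and 8.86 against 5.50, 5.37 and 6.71 (2.17, adjusted p = 0.203); its other probe set differed by 0.91. Fabp5, a fatty acid carrier, and Serpina3n, a protease inhibitor, differed by 2.29 and 2.22 (adjusted p = 0.162 and 0.152). Cpxm1, a secreted carboxypeptidase-like protein, differed by 1.99 (adjusted p = 0.119), and Cyp2f4, a cytochrome P450 with no control above the 40th percentile, by 2.43 (adjusted p = 0.266). Without control 43, Tgfb2, Fabp5, Serpina3n and Cpxm1 passed (adjusted p = 0.017, 0.0161, 0.0169 and 0.00177), and Fam111a, Spp1 and Cyp2f4 did not.

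The largest negative differences among separated genes included products of epithelial cells. Prom1, an apical membrane glycoprotein, measured 8.98, 8.31 and 7.93 in model arrays and 11.70, 10.84 and 9.72 in controls (-2.34, adjusted p = 0.162). Mmp7, the matrilysin secreted by epithelial cells, measured 9.39, 9.04 and 7.96 against 12.01, 11.89 and 9.50 (-2.33, adjusted p = 0.396). Fxyd4, a regulator of the sodium pump, measured 7.11, 6.05 and 5.03 against 8.78, 7.43 and 8.6 (-2.21, adjusted p = 0.208). Control 43 lay just above model 21 for Mmp7, while for Fxyd4 it lay beside control 41. Coro2a, an actin-binding coronin, Nptx1, a pentraxin, and Tubb2b, a beta tubulin, differed by -2.22, -2.01 and -1.84. The other probe set of Coro2a differed by -1.06. For Tubb2b the model arrays were nearly equal at 6.10, 6.13 and 6.12, with control 43 at 6.31 and the other controls at 8.81 and 8.74. Susd2, Adamts8 and Lratd1 differed by -1.89, -1.85 and -2.03, and 0 of these 9 genes passed. Without control 43, Prom1, Coro2a, Nptx1, Tubb2b, Susd2, Adamts8 and Lratd1 passed, with adjusted p-values from 0.00032 for Tubb2b to 0.0107 for Adamts8, and Mmp7 (adjusted p = 0.0694) and Fxyd4 (0.0629) did not.

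Leaving out control 43 changed the extent of the comparison more than any other array did. Without it 1384 genes passed (12.6%), of which 625 were higher (5.7%) and 759 lower (6.92%) in the model uterus. In that fit 54.8% of all genes had a positive difference. The count rests on controls 41 and 42, kept after the values were seen. Without model 21, model 23, control 41 or control 42 the count was 0, and without model 22 or any 1 treatment array it was 1. For 1206 of the 1384 genes (87.1%) control 43 lay closer to the model mean than to the mean of controls 41 and 42. Its level was inside the span of the 3 model arrays for 553 (40%), past them for 379 (27.4%) and between the groups for 399 (28.8%). For 35 genes (2.53%) it was inside the span of controls 41 and 42, and for 18 (1.3%) past them. The 1384 genes were picked because controls 41 and 42 differed from these same model arrays. The position of an array left out of that choice is thus partly fixed by it, and the shares over all genes were not computed.

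**Figure D2:**
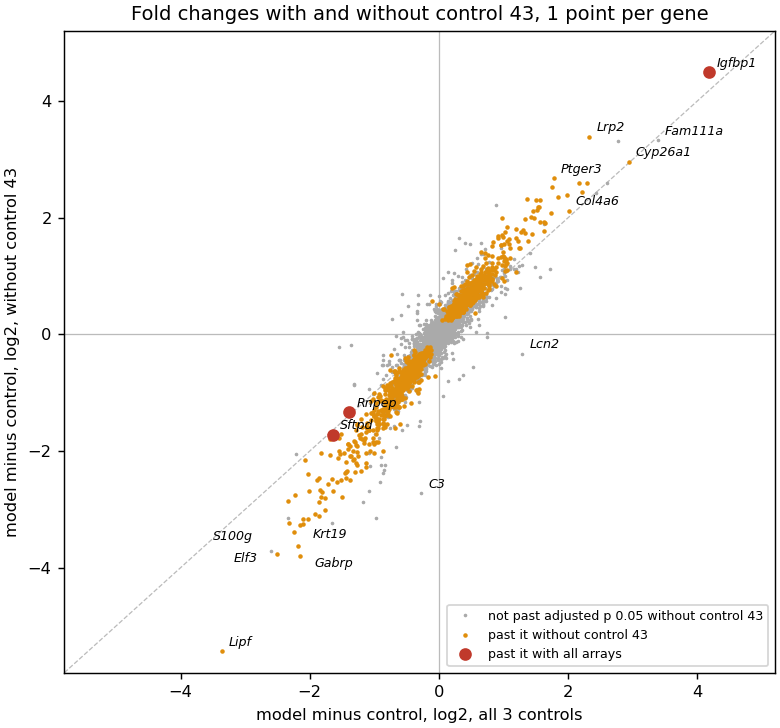
Each point is 1 of 10973 genes; the x axis is the log2 difference between model and control means with all 3 controls, the y axis that without control 43, and the dashed line marks equality. Igfbp1, Sftpd and Rnpep lie near the line, whereas Lipf, at -3.36 and -5.43, and many lower genes lie beyond it, and Lcn2 crosses from 1.29 to -0.33.

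Without control 43 the largest falls included several genes known from epithelia. Lipf, the gene of gastric lipase, measured 4.73, 5.19 and 6.97 in model arrays, 10.86 and 11.25 in controls 41 and 42, and 4.85 in control 43 (-5.43, adjusted p = 0.00498). Gabrp, the pi subunit of the GABA-A receptor, measured 4.55, 6.55 and 6.37 against 9.65 and 9.60, with control 43 at 4.68 (-3.80, adjusted p = 0.00786). Elf3, an ETS transcription factor of epithelia, measured 5.52, 5.83 and 6.08 against 9.79 and 9.37, with control 43 at 5.78 (-3.77, adjusted p = 0.000409). In all 3 genes control 43 lay inside the span of the model arrays. Krt19, a keratin of simple epithelium, differed by -3.62, and Gch1, the first enzyme of tetrahydrobiopterin synthesis, by -3.25. Crabp2, a retinoic acid carrier, differed by -3.24, and the transporter gene Mfsd4a, the cytokine-like Fam3b, Unc5cl and the keratin gene Krt12 by -3.39, -3.27, -3.17 and -3.16. With control 43 these 10 genes had differences of -2.03 or lower, and 0 passed. Krt12 reached the 40th percentile in 2 controls and 0 model arrays, and Gch1 in 2 controls and 1 model array. Control 43 read 4.72 for Krt12 and 4.68 for Gch1, near the bottom of the scale like the model arrays. The size of these 2 falls therefore depends on the constant added before log2.

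On the higher side without control 43, Lrp2, megalin, measured 8.32, 7.51 and 9.19 in model arrays, 4.83 and 5.07 in controls 41 and 42, and 8.13 in control 43 (3.39, adjusted p = 0.00562). Ptger3, the EP3 receptor for prostaglandin E2, measured 8.85, 8.58 and 8.62 against 5.43 and 6.58, with control 43 at 8.70 (2.68, adjusted p = 0.00485); its other probe set differed by 0.41 with all controls. Ptprr, a receptor tyrosine phosphatase, measured 8.80, 8.13 and 7.45 against 5.43 and 5.77, with control 43 at 7.88 (2.53, adjusted p = 0.0123). Control 43 fell inside the model range for all 3. Igfbp1, Cyp26a1, Fabp5, Tgfb2, Serpina3n, Cpxm1 and Igfbp3 complete the 10 largest, and for them control 43 lay below every model array.

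**Figure D3:**
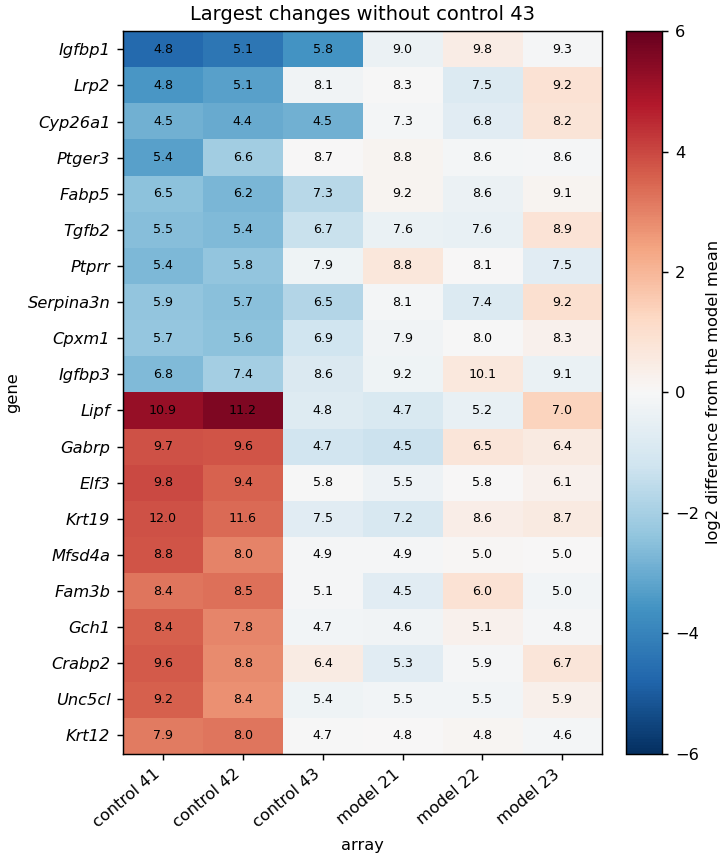
Heat map of the 10 genes with the largest rise and the 10 with the largest fall without control 43; the number in each cell is log2(intensity + 16) and the colour its difference from the mean of the model arrays. The column of control 43 has the colours of the model columns for most falling genes, such as Elf3 at 5.78, and those of the other controls for Igfbp1 and Cyp26a1.

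Epithelial identity genes were the list with the lowest median, -0.68, and -1.13 without control 43. Of 29 tested, 8 were lower at an unadjusted p under 0.05 (6.08% over all genes), 0 were higher and 0 passed. Without control 43, 19 passed lower (6.92% over all genes). Epcam, the adhesion molecule that marks nearly all epithelial cells, measured 10, 9.77 and 9.75 in model arrays and 10.69, 10.49 and 10.37 in controls (-0.68, adjusted p = 0.176, and 0.0249 without control 43). Cdh1, E-cadherin, measured 8.41, 8.67 and 8.98 against 10.37, 10.17 and 9.09 (-1.19, adjusted p = 0.266, and 0.00807 without control 43). For both genes every model array lay below every control, and for Cdh1 control 43 was much nearer to the model arrays than controls 41 and 42 were. The keratins separated control 43 from the other controls instead: Krt8 measured 7.82, 9.14 and 10.09 in model arrays, 12.02 and 11.56 in controls 41 and 42, and 7.96 in control 43. Krt18 measured 7.94, 8.6 and 9.21 against 10.36, 10.01 and 7.42. The 5 claudin genes tested, which seal tight junctions, ranged from -1.08 for Cldn10 and -1.02 for Cldn7 over -0.65 for Cldn4 and -0.32 for Cldn3 to 0.14 for Cldn8, and Cldn7 passed without control 43 (-1.84, adjusted p = 0.0174).

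Several secretory and oestrogen-induced genes differed widely between arrays of the same group. C3, the complement component that oestrogen induces in rat uterine epithelium, measured 7.04, 10.64 and 10.77 in model arrays and 12.33, 12.08 and 4.87 in controls, so its difference of -0.27 had an SE of 1.90. Lcn2, the iron-scavenging lipocalin, measured 6.38, 10.81 and 10.32 against 9.82, 9.17 and 4.65. S100g, the calcium-binding calbindin of uterine epithelium, measured 5.94, 6.06 and 9.85 against 10.63, 11.36 and 7.67 (-2.60, adjusted p = 0.413). For C3 and Lcn2 control 43 was the lowest array and model 21 the next, and models 22 and 23 lay closer to controls 41 and 42. Aqp5, a water channel of uterine glands, differed the other way, at 9.71, 9.88 and 10.31 against 8.34, 8.01 and 9.63 (1.31, adjusted p = 0.300; 1.79 without control 43, adjusted p = 0.00896). Of 21 oestrogen-induced genes tested, 2 were higher (6.37% over all genes) and 0 lower (6.08%) at an unadjusted p under 0.05, with a median of -0.09. Without control 43, 3 passed higher (5.7% over all genes) and 4 lower (6.92%), and the median was -0.29. Of 24 secretory genes, Sftpd passed, 4 were lower and 1 higher at that threshold, with a median of -0.35. Without control 43, 1 passed higher and 8 lower, and the median was -0.81. Anxa3, an annexin, differed by -1.28 (adjusted p = 0.235, and 0.00754 without control 43), with no overlap. Its other, dimmer probe sets differed by -0.56, 0.01 and -0.58.

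All 20 smooth muscle genes tested had a positive difference (53.5% over all genes), with a median of 0.39. Of the 20, 8 were higher at an unadjusted p under 0.05 (6.37% over all genes) and 0 passed the adjusted threshold. Lmod1, a nucleator of smooth muscle actin, measured 7.91, 7.74 and 7.74 in model arrays and 6.34, 7.08 and 7.33 in controls (0.88, adjusted p = 0.252). Smtn, smoothelin, measured 9.61, 9.39 and 9.25 against 8.01, 8.61 and 9.05 (0.86, adjusted p = 0.266). Des, desmin, measured 11.41, 11.29 and 11.23 against 10.42, 11.05 and 10.30 (0.72, adjusted p = 0.284). Control 41 was the lowest array for Lmod1 and Smtn, and their differences were 0.59 each without it. As a mean over the 20 genes of the deviation from each gene's mean, control 41 stood apart at -0.73. The other controls gave -0.03 (control 42) and -0.09 (control 43), and the model arrays ranged from 0.02 in model 23 to 0.27 in model 21. The abundant Myh11 differed by only 0.28. Without control 43, 3 of the 20 passed higher (5.7% over all genes), Lmod1 and Smtn among them. Beside this, mesothelial markers summed to 983.5, 711.4 and 511.6 in model and 346.2, 652.6 and 761.1 in control arrays on the linear scale, ranges that overlap; their part was not tested.

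Basement membrane genes included one of the nearest misses. Col4a6, a minor chain of type IV collagen found around smooth muscle, measured 7.63, 7.36 and 8.03 in model and 5.15, 5.96 and 5.89 in control arrays (2.01, SE 0.24, adjusted p = 0.0581), and its other probe set differed by 1.52. Col4a5, its neighbour and partner chain, measured 10.34, 10.12 and 10.35 against 8.6, 9.76 and 9.38 (1.02, adjusted p = 0.238). In both genes control 43 lay between or beside the other controls, and both passed without it, at adjusted p = 0.00498 and 0.0464. The major chains moved less, with Col4a1 at 0.26 and Col4a2 at 0.21. Lama4, a laminin chain of muscle and vessels, measured 8.55, 8.82 and 9.12 against 7.73, 8.02 and 8.25 (0.83, adjusted p = 0.208, and 0.0262 without control 43). Its other, dimmer probe set differed by 0.11. Of 18 tested, 5 were higher (6.37% over all genes) and 0 lower (6.08%) at an unadjusted p under 0.05, with a median of 0.24. Without control 43, 5 passed higher (5.7% over all genes) and 1 lower (6.92%). The small proteoglycan Bgn differed by 1.05 (adjusted p = 0.203), whereas the fibrillar collagens Col1a1 and Col3a1 differed by 0.14 and 0.37. Of 28 stromal matrix genes, 4 were higher and 2 lower at an unadjusted p under 0.05, among the latter Thbs2, thrombospondin 2, at -0.42; 0 passed, and 2 passed higher without control 43, Bgn among them. Among proteases and inhibitors, Adamts1, a protease that progesterone induces in ovulating follicles, and Timp2 differed by 0.76 and 0.65 (adjusted p = 0.169 and 0.208, and 0.0354 and 0.018 without control 43) with no overlap. The other, dimmer probe set of Timp2 differed by 0.01.

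Genes of cholesterol and fatty acid synthesis mostly measured lower. Of 24 tested, 19 had a negative difference and 0 passed, with a median of -0.43. At an unadjusted p under 0.05, 9 were lower (6.08% over all genes) and 0 higher (6.37%). Idi1, the isopentenyl diphosphate isomerase of the mevalonate pathway, measured 9.74, 9.48 and 10.49 in model arrays and 11.18, 11.35 and 10.54 in controls (-1.12, adjusted p = 0.252), and its other probe set differed by -1.35. Mvd, the decarboxylase before it, measured 5.07, 5.25 and 5.10 against 6.30, 5.90 and 5.38 (-0.72, adjusted p = 0.307). Fasn, fatty acid synthase, measured 7.41, 7.45 and 7.29 against 8.20, 7.89 and 7.64 (-0.53, adjusted p = 0.316). In these 3 genes the groups did not overlap and control 43 was the control nearest to the model arrays. Fdps, Fdft1 and Msmo1, further enzymes of the path to cholesterol, differed by -1.12, -0.94 and -1.0. Scd, which desaturates fatty acids, had the opposite sign at 1.08 (adjusted p = 0.432). Without control 43, 9 passed lower (6.92% over all genes) and 2 higher (5.7%). Markers of fat went both ways: of 8 tested, 6 had a positive difference, 3 of them at an unadjusted p under 0.05, and the median was 0.46. Over 11 markers on the array the linear sum was 605.4, 521.0 and 557.0 in model arrays and 736.0, 682.5 and 284.7 in controls. Adipoq, adiponectin, made up most of that sum in controls 41 and 42 (453.8 and 377.8). It was lower in every model array (48.5 to 163.4) and lowest in control 43 (15.3). Plin4, a lipid droplet protein, was 104.0 to 107.6 in model and 44.6 to 72.2 in control arrays. Fabp4 read 48.4 and 40.3 in models 21 and 22, 4.7 in model 23 and at most 5 in the controls. Pck1 read 66.4 and 44.4 in models 21 and 22, 16 in model 23 and at most 19.9 in the controls. The part of fat cells was not tested.

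Among genes of glucose handling the largest difference was in a transporter. Slc2a3, the glucose transporter GLUT3, measured 6.40, 6.19 and 6.20 in model arrays and 8.10, 7.96 and 7.33 in controls, with control 43 the lowest control and nearly 1 log2 unit above the highest model array (-1.54, SE 0.19, adjusted p = 0.0663, and 0.000409 without control 43). Slc2a1, the transporter GLUT1, differed by -0.41 (adjusted p = 0.356). Pgk1, phosphoglycerate kinase, was tight in both groups, at 8.76, 8.85 and 8.78 against 9.47, 9.52 and 9.41 (-0.67, adjusted p = 0.199, and 0.0395 without control 43). Pdha1, which feeds pyruvate to the mitochondria, differed by 0.60 and Gaa, the lysosomal enzyme that breaks down glycogen, measured 8.10, 8.09 and 8.18 against 7.48, 7.52 and 7.66 (0.57, adjusted p = 0.119, and 0.0103 without control 43). Of 25 genes in the list, 3 were higher (6.37% over all genes) and 6 lower (6.08%) at an unadjusted p under 0.05, with a median of -0.07. Without control 43, 2 passed higher (5.7% over all genes) and 5 lower (6.92%). The 24 respiratory chain genes gave 0 at an unadjusted p under 0.05, with a median of -0.02.

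Antioxidant and arginine enzymes split between directions. Prdx6, a peroxiredoxin, measured 7.82, 7.98 and 7.90 in model arrays and 8.75, 8.41 and 8.55 in controls (-0.67, adjusted p = 0.119). Gstp1, a glutathione transferase, measured 9.20, 9.56 and 9.67 against 8.58, 8.93 and 8.93 (0.67, adjusted p = 0.252), and catalase, Cat, differed by 0.64; without control 43 all 3 passed (adjusted p = 0.0142, 0.0476 and 0.0315). None of these genes overlapped between the groups. Of 29 glutathione and selenium enzymes, 5 were higher (6.37% over all genes) and 7 lower (6.08%) at an unadjusted p under 0.05. Without control 43, 4 passed higher (5.7% over all genes) and 7 lower (6.92%). In the polyamine pathway, Sms, spermine synthase, and Sat1, the acetylase that breaks polyamines down, were both on the lower side, at -0.86 and -0.83 (adjusted p = 0.162 and 0.255, and 0.0258 and 0.0367 without control 43).

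**Figure D4:**
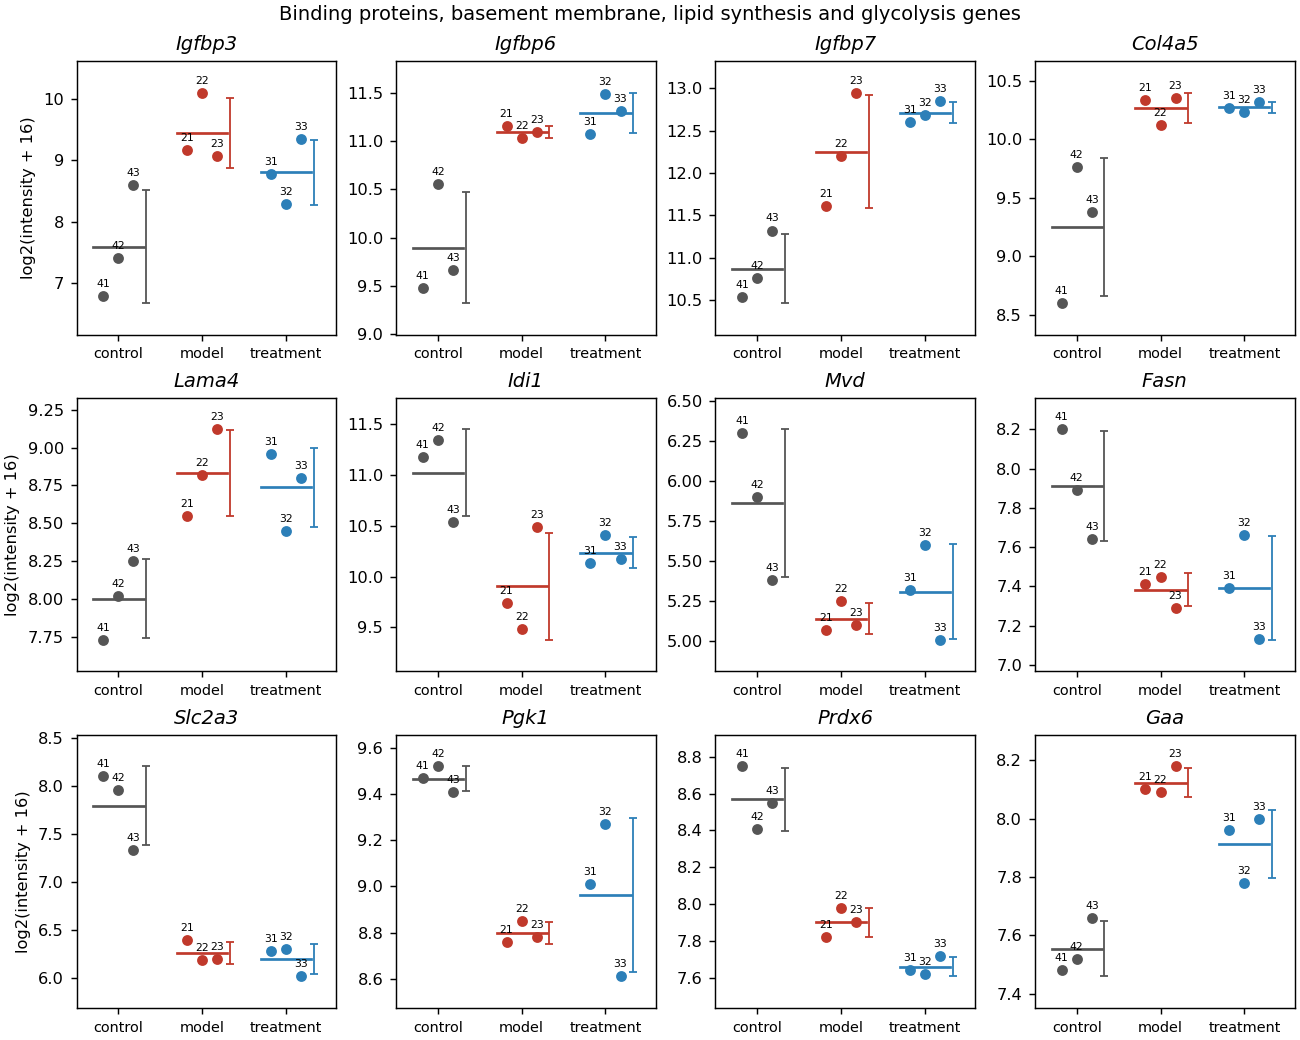
Log2(intensity + 16) of 12 genes of binding proteins, basement membrane, lipid synthesis, glucose handling and antioxidant defence, 1 point per array with its number; lines are group means and bars 1 SD (n = 3). In all 12 panels the model and control points do not overlap, and control 43 is the control nearest to the model arrays in most of them, such as Idi1 at 10.54.

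Of 31 Wnt, BMP and TGF-beta genes, 8 were higher (6.37% over all genes) and 0 lower (6.08%) at an unadjusted p under 0.05, with a median of 0.21. The shares of all genes that passed without control 43 were 5.7% higher and 6.92% lower. Id3 and Id2, inhibitors of helix-loop-helix factors that respond to BMP, differed by 1.55 and 1.04 (adjusted p = 0.326 and 0.313, and 0.00925 and 0.0392 without control 43), each with no overlap. The list also holds Tgfb2 at 2.17, and without control 43, 6 of its genes passed higher and 1 lower. Of 28 decidual and receptivity genes, Igfbp1 passed, 7 were higher and 3 lower at an unadjusted p under 0.05, and without control 43, 4 passed higher and 3 lower. Stat3, which transmits the LIF signal at implantation, measured 8.36, 8.33 and 8.36 against 8.58, 8.70 and 8.80 (-0.34, adjusted p = 0.245), and its other probe set also differed by -0.34. In prostaglandin metabolism, Ptgis, the prostacyclin synthase, differed by 0.73 and Akr1b1, an aldose reductase that also makes prostaglandin F2alpha, by -1.0 (adjusted p = 0.162 and 0.140, and 0.0348 and 0.0211 without control 43), though its other, dimmer probe set differed by -0.06. The cyclooxygenase genes Ptgs1 and Ptgs2 differed by -0.33 and 0.75 with wide overlap. In the VEGF system Vegfb differed by 0.87 and the receptor gene Nrp2 by -0.43 (adjusted p = 0.199 and 0.266), and Vegfa by 0.27 (adjusted p = 0.455). Without control 43 all 3 passed, at adjusted p = 0.0189, 0.0123 and 0.0321.

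Immune lists differed in direction. Of 11 natural killer and T cell genes, 4 were higher (6.37% over all genes) and 0 lower (6.08%) at an unadjusted p under 0.05. Among the 4 was Prf1, the pore protein perforin, at 5.33, 6.39 and 6.02 in model arrays against 5.21, 5.19 and 5.23 in controls (0.70, adjusted p = 0.326). Model 22 stood out in this list, with a mean deviation over its genes of 0.74, against -0.08 and 0.14 in models 21 and 23. Without model 22 the differences were 0.47 for Prf1, 0.33 for the interleukin 2 receptor gene Il2rb, 0.22 for the granzyme gene Gzmm and 0.57 for the chemokine gene Ccl5, compared with 0.70, 0.53, 0.36 and 1.11 with it. Of 22 chemokines and cytokines, 3 were higher, Ccl5, Ccl20 and Ccl4, and 1 lower, Cxcl14, at that threshold, with a median of 0.03. Ccl20 reached the 40th percentile in 0 controls and was kept only through arrays of rats given gonadotropins. Of 20 macrophage and MHC class II genes 0 were higher or lower at that threshold. Cd74, the class II invariant chain, was highest in model 22 at 10.40. Granulocyte markers summed to 225.4 in model 22, 88.2 and 143.4 in models 21 and 23, and 95.8 to 125.5 in the controls on the linear scale; their part was not tested.

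Of 23 interferon and MHC class I genes, 19 had a negative difference, 2 were lower at an unadjusted p under 0.05 (6.08% over all genes) and the median was -0.29. Stat2, a transducer of type I interferon, measured 6.82, 6.86 and 6.74 in model arrays and 7.58, 7.35 and 6.98 in controls (-0.50, adjusted p = 0.284, and 0.0131 without control 43). Of 25 unfolded protein response genes, 4 were lower and 1, Ddit3, higher, with a median of -0.19. Of 28 cell cycle genes there were 0, with Mki67, a marker of dividing cells, at 6.17, 5.65 and 5.17 against 5.52, 4.79 and 5.26. Without control 43, 5 interferon and MHC class I genes, 3 unfolded protein response genes and 2 chemokines and cytokines passed lower (6.92% over all genes). In that fit 1 cell cycle gene passed higher (5.7% over all genes), and 0 macrophage, natural killer and T cell or respiratory chain genes passed.

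**Figure D5:**
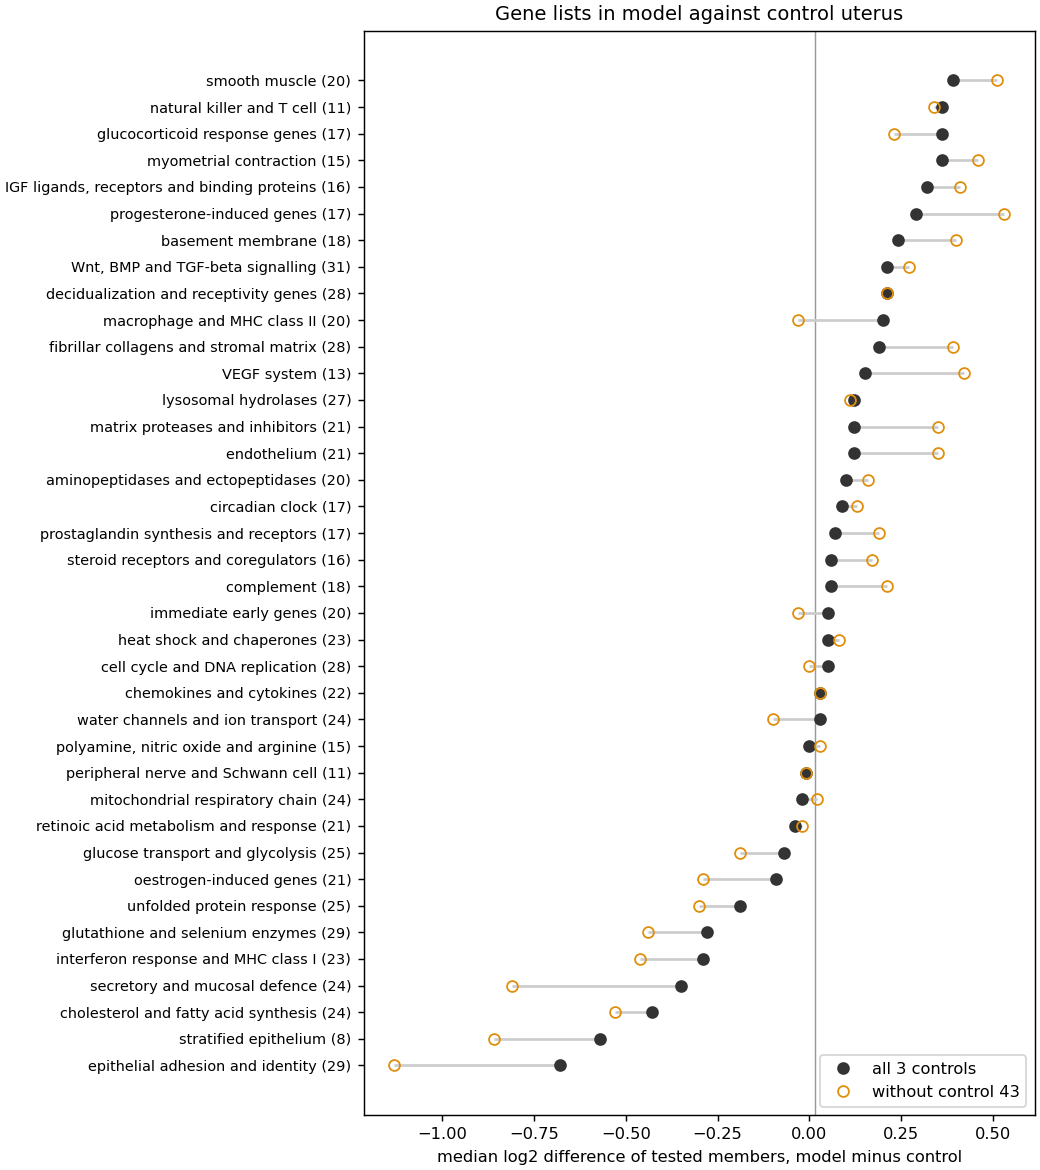
Median log2 difference between model and control of each gene list other than the marker lists for tissues and cell types, with the number of tested members in parentheses; filled points use all 3 controls, open points leave out control 43, and the grey line is the median of all genes, 0.016. Among the lists drawn, epithelial genes lie lowest at -0.68 and smooth muscle genes highest at 0.39, and macrophage genes cross from 0.20 to -0.03 without control 43.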

How the data were processed

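The values analysed were the intensities of the series table that the authors deposited, normalized by them on a linear scale, 1 per probe set and array. Per the submitters' processing notes MAS5 was used; its version, settings and scaling are not given in these sources, so the background level is unknown, and precision is limited by the 3 arrays a group. Intensities ran from 1.87 to 7895.7, and no pair of arrays shared more than 0.44% of values. Of 31099 probe sets, 57 controls were left out; the platform annotation gave 1 symbol for 20826, several for 436 and none for 9780, and 20758 matched a RefSeq gene table. Probe sets that reached the 40th percentile of an array on at least 3 of the 9 were kept (19326, of which 14553 had 1 symbol), and each gene was read from its probe set of highest mean (10973 genes). The constant 16 was added before log2, so changes of dim genes are understated.

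In limma 3.58.1 (R 4.3.3) the means of the 3 groups were fitted over the 9 arrays together by lmFit, and two-sided tests came from eBayes with trend, on 6 residual degrees of freedom; p-values were Benjamini-Hochberg adjusted over all genes. The fit was run on simulated data with planted differences, independent noise and, for each gene, the same spread in every group. Such data hold no array like control 43, so that run gives no error rate for these arrays. Named genes were those that passed, the 10 largest differences each way among non-overlapping genes at an unadjusted p under 0.05 whose higher group exceeded the median gene (6.58), the 10 largest each way that passed without control 43, and up to 4 members of each gene list with the smallest p, plus a few members named whatever their p. Symbols that only number a locus were not named. Further members are given to complete a pathway. Differences of other probe sets of the same gene are given for some genes only. The lists, the rule and the comparison were chosen with earlier results of these data known. Alternatives were other constants before log2 (1 or 64), quantile normalization, no filter or the 60th percentile, the mean of a gene's probe sets, no variance trend, the 6 arrays alone, a replicate block and each array left out. Figures used matplotlib 3.10.9 in Python 3.11.15.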

Additional observations from a re-analysis of the deposited data

How the results depend on the processing

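The number of genes past the adjusted threshold was 3, and 3 or 4 with 1 or 64 added before log2, quantile normalization, the 60th percentile filter, the mean of probe sets and no variance trend. It was 1 without the filter, where more genes were tested, and 1 on the 6 arrays alone, where Fam111a replaced the others. Leaving out 1 array gave 0 to 1384. Array numbers share a last digit across groups. Deviations of same-numbered model and control arrays from their group means correlated at r = -0.39, 0.08 and -0.41. Treatment arrays were left out of that check, so it cannot show whether same-numbered arrays shared a batch. With that digit as a replicate block 4 genes passed: Igfbp1, Sftpd, Cyp26a1 and Tgfb2, not Rnpep (adjusted p = 0.119).

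With 1 added before log2 the sign turned for C3 (0.01) and Cd68 (0.00). Leaving out 1 array turned the sign, with none called, for C3 (-2.72 to 1.01), Cd68 (-0.43 to 0.34), Col1a1 (-0.15 to 0.51), Ihh (-0.20 to 0.36), Lcn2 (-0.33 to 2.68), Pecam1 (-0.08 to 0.13), Pgr (-0.34 to 0.19) and Ptgs1 (-0.69 to 0.25). Of 188 named genes, 105 that did not pass with all arrays passed without control 43. Some had been named because they passed without it, and others for a small p, so that count was partly fixed by the naming. Over all genes 12.6% passed without control 43. Cyp26a1, Cyp2f4, Ccl20 and Rbp4 lay under the 40th percentile in every control and Krt12 in every model array, so the size of their change is uncertain.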

Other observations

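For 35 and 18 of the 1384 genes that passed without control 43, that array lay between or past controls 41 and 42. Those named here were singled out after their values were seen, from the same arrays as the comparison. Besides Col4a6, Col4a5, Rnpep and Igfbp6 there was Selenbp1, a selenium-binding protein, at 7.62, 8.49 and 8.97 in model and 6.11, 7.06 and 7.02 in control arrays. Nt5e, the ectoenzyme CD73 that makes adenosine, measured 7.62, 7.42 and 7.63 against 6.25, 6.91 and 6.55. Gnpda1, a glucosamine-6-phosphate deaminase, measured 7.20, 6.90 and 7.45 against 6.30, 6.36 and 6.34. On the lower side, Dpagt1, the first enzyme of N-glycan assembly, measured 7.19, 7.14 and 7.14 against 7.62, 7.6 and 7.64, and Xpnpep1, an aminopeptidase like Rnpep, 7.11, 7.07 and 7.20 against 7.79, 7.61 and 7.81.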
